A study of Mus musculus with 3 samples.

Results

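The TGF-beta and BMP family genes described here are the probe rows of a mouse microarray whose annotated gene symbol names a TGF-beta ligand (Tgfb), a BMP (Bmp) or growth differentiation factor (Gdf), an activin beta subunit (Inhb), a TGF-beta, BMP or activin receptor (Tgfbr, Bmpr, Acvr) or a SMAD. Matching the symbols by pattern gave 66 of 38976 probe rows, which carry 40 of 15056 symbols. The pattern also took in Bmp2k, a BMP-inducible protein kinase that is not a ligand, and Bmp1, a metalloprotease that cleaves procollagen and the BMP antagonist chordin. A further 9 family symbols, Acvr1c, Bmp8a, Gdf2, Gdf11, Gdf15, Inhbb, Smad3, Smad6 and Smad7, matched no row and were not analysed here. Of the 40 symbols, 24 had 1 row, 9 had 2, 5 had 3, and Bmp1 and Smad1 had 4 and 5.

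Each of the 3 arrays compared RNA of 2 kinds of mammary tumor by 2 dyes. Both kinds came from primary MMTV-PyMT carcinoma cells, in which the mouse mammary tumor virus promoter drives the polyoma middle T oncogene mainly in mammary epithelium. The cells had received the PMIG retrovirus, with an IRES-GFP cassette, either carrying full-length GATA-3 or empty, and grew for 6 weeks in cleared fat pads of wild-type mice. GATA-3 tumor RNA carried Cy5 and empty-vector tumor RNA carried Cy3 on all 3 arrays, so a dye effect of a probe is not separated from expression. The sources used here do not give strain or age, or say whether tumors or control RNA were shared or pooled. If the arrays were technical repeats, every p-value measures technical spread only. A cleared pad lacks the host's own epithelium but keeps its fat, fibroblasts, vessels and immune cells, and the outgrowths were taken whole. In such bulk RNA, fewer cells of a type and less RNA per cell cannot be told apart.

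The values are deposited log ratios, read here as log2 of GATA-3 tumor over empty-vector tumor with each array's median set to 0. Neither the log base nor the direction is stated in the sources used here. The direction is likely, from the labels' channel order and the sign of the Gata3 probe, and if it were opposite every sign below would turn. The Gata3 probe gave 0.74, 0.86 and 0.79 on arrays 1, 2 and 3 (mean 0.80 ± 0.06, SD, n = 3, limma, adjusted p = 0.00319), and 12.5% of all rows were as high. Below, "rose" and "fell" mean a positive or negative ratio with an adjusted p under 0.05 (limma, Benjamini-Hochberg over 38975 rows). A value after ± is the SD over 3 arrays, and a row that did not pass is given by its values.

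TGF-beta family ligands are secreted dimers that bring together type II and type I receptors, which are serine/threonine kinases. The activated type I receptor phosphorylates receptor-regulated SMADs, SMAD2 and SMAD3 for TGF-beta and activin and SMAD1, SMAD5 and SMAD9 for BMPs, and these enter the nucleus with SMAD4. In the mammary gland TGF-beta is known to restrain epithelial growth, and in carcinoma it is known for promoting invasion and change toward a mesenchymal state.

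The family split evenly in direction. Of its 66 rows, 18 rose, 18 fell and 30 did not pass, so that 54.5% were called against 57.3% of all probe rows on these arrays. Among all rows 31.4% rose and 25.9% fell. The median family row had a mean ratio of -0.08, against -0.02 for all rows, and the family ran from -1.10 to 1.28. A mean of at least 1 in size together with the call was found in 4 family rows, Acvr1, Bmpr2 and Bmpr1a on the positive side and Smad1 on the negative, against 8.23% of all rows. With rows averaged per gene, 23 of the 40 genes were called, 13 positive and 10 negative (57.5%), against 55.8% of all genes and unnamed rows. The family as a whole thus did not stand out from the background in how often its rows were called.

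Calls depended on which arrays entered. Of the 36 called rows 15 (7 positive, 8 negative) stayed called whichever array was left out: on the positive side Acvr1, Bmpr2, Bmpr1a, Smad5, Tgfbr1, Bmp6 and Gdf5, and on the negative side 2 rows of Smad1 and 1 each of Acvr1b, Bmp2, Bmp1, Tgfb1, Bmp8b and Tgfb2. Leaving out array 3 left 16 family rows called (30.2% of all rows), leaving out array 2 left 20 (39.0% of all rows), and leaving out array 1 gave 44 (64.8% of all rows). Where a row named below lost its call in one of these fits, its adjusted p is given there.

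GATA-3 is known to bind DNA at GATA letters, so the RefSeq promoter windows of the family (build GRCm38.p6, 300 bases around each gene's start) were searched on both strands for the motif AGATAA, for the version of it that ends in G instead, written AGATAG, and for the versions of both that open with T instead, written TGATAA in the first case and, in the second case, as TGATAG. Overlapping matches were allowed. Windows were found for 27 of the 40 genes, 33 in all, and 3 of the 33 (9.09%) held such a word, against 29.8% of the 32851 windows of all genes. All 3 windows are printed, and their genes' ratios differed: of Tgfb2 both rows were negative and 1 fell, Smad5 rose, and Bmp10 did not pass. They are read 5′ to 3′ on the gene's strand, with the matched letters in capitals (TTATCT is AGATAA on the other strand), and a match is a description of letters only.
Tgfb2 (chr1:186705940-186706239, - strand): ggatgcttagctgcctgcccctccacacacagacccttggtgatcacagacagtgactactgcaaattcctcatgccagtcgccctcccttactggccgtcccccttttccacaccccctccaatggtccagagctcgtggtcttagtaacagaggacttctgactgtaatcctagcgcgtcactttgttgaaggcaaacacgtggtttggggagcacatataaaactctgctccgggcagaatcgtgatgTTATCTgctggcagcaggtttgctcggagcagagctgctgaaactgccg
Smad5 (chr13:56703418-56703717, + strand): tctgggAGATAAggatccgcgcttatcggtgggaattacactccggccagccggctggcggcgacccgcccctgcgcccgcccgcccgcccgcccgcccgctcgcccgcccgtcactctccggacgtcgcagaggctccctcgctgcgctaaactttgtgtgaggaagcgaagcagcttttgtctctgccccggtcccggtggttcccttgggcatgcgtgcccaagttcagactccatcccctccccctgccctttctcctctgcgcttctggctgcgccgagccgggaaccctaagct
Bmp10 (chr6:87428744-87429043, + strand): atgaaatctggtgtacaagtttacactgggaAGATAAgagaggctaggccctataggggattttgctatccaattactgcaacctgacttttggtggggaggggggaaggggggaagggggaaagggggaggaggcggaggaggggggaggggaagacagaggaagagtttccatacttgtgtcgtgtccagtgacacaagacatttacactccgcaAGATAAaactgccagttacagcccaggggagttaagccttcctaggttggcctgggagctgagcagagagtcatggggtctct
Smad5 has several annotated starts, and the other Smad5 windows held no match.

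The rows of the TGF-beta ligands themselves did not move as one. Tgfb1 and Tgfb3 have 1 row each, so a difference between these genes cannot be told from one between probes. Tgfb1, the most widely expressed isoform and a product of epithelial, stromal and immune cells alike, gave -0.57, -0.95 and -0.55 on arrays 1, 2 and 3, a fall of 1.61-fold (mean -0.69 ± 0.22, adjusted p = 0.00653). Tgfb3, an isoform known for palate fusion and for mammary involution, gave 0.39, 0.38 and 0.56 (mean 0.44 ± 0.10, adjusted p = 0.0111). The 2 ligands were thus of opposite sign on every array, although the Tgfb3 call was lost without array 3 (adjusted p = 0.103). Tgfb2, the isoform with low affinity for the type II receptor in the absence of betaglycan, had 2 rows: one fell, with -0.51, -0.72 and -0.53 (mean -0.59 ± 0.11, adjusted p = 0.00550), and the other gave -0.22, -0.05 and -0.14 (mean -0.14 ± 0.08, adjusted p = 0.229). All 6 values of Tgfb2 were below 0, and its promoter window is one of the 3 with a GATA word.

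Among BMP ligands, 2 of 10 rows rose, 2 fell and 6 did not pass (40.0% called, against 57.3% of all rows). Bmp6 gave 0.58, 0.83 and 0.72, a 1.64-fold rise (mean 0.71 ± 0.13, adjusted p = 0.00376), and its close relative Bmp5 gave 0.42, 0.94 and 0.71 (mean 0.69 ± 0.26, adjusted p = 0.00803). BMP5, BMP6, BMP7 and BMP8 form one subgroup of the ligands by sequence. The Bmp5 call was lost without array 3 (adjusted p = 0.0541). Bmp2, of the other main subgroup with BMP4, gave -0.49, -1.17 and -0.83, a 1.78-fold fall (mean -0.83 ± 0.34, adjusted p = 0.00762). Bmp4, a ligand needed from the early embryo onward, gave 0.15, 0.23 and 0.29 (mean 0.22 ± 0.07, adjusted p = 0.0726), positive on every array but not called. Within each of these subgroups rows therefore differed in mean sign, though of Bmp2 and Bmp4 only Bmp2 was called. Bmp2, Bmp4, Bmp5, Bmp6 and Bmp7 have 1 row each, so a difference between genes cannot be told from one between probes. Bmp7 gave -0.49, -0.19 and -0.09 (adjusted p = 0.101). One Bmp8b row fell (mean -0.59 ± 0.15, adjusted p = 0.00638) and the other lay at 0.04 ± 0.0078. Bmp8b has a near-identical neighbour, Bmp8a, whose RNA its probes might also bind, which was not tested. Bmp3, Bmp10 and Bmp15 had means from -0.19 to 0.12 and did not pass, and for Bmp3 array 1 (0.79) lay far above arrays 2 and 3 (-0.15 and -0.28).

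Of the 9 rows of growth differentiation factors, 2 rose, 0 fell (limma, 0 also at an unadjusted p under 0.05) and 7 did not pass. Thus 22.2% were called, against 57.3% of all rows. Gdf6, known from joint and eye development, gave 0.15, 1.22 and 0.82 (mean 0.73 ± 0.54, adjusted p = 0.0329) and lost the call without array 2 (adjusted p = 0.0874) and without array 3 (adjusted p = 0.126). The 2 rows of Gdf5, a joint and cartilage factor, gave 0.61, 0.54 and 0.52 for one (mean 0.56 ± 0.05, adjusted p = 0.00500) and 0.22, -0.17 and 0.13 for the other (mean 0.06 ± 0.20, adjusted p = 0.657). Gdf1, Gdf3, Gdf7, Gdf9 and both rows of Gdf10 had means between -0.27 and 0.08. Gdf1 is known to share a transcript with Cers1, so its row may read either.

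Of the activin subunits, Inhba, which forms activin A, gave -0.51, -0.25 and -0.52 and fell (mean -0.43 ± 0.15, adjusted p = 0.0168), a call lost without array 3 (adjusted p = 0.124). Inhbc and Inhbe, known mainly from liver, gave means of -0.04 ± 0.17 and -0.11 ± 0.12 and did not pass. Bmp1 was negative in all 4 rows, of which 3 fell. Its row of largest ratio gave -0.65, -0.94 and -0.74 (mean -0.77 ± 0.15, 1.71-fold, adjusted p = 0.00352), and the other 3 had means from -0.41 to -0.16. The rows at -0.41 and -0.34 lost the call without array 2 (adjusted p = 0.0538 and 0.154) and without array 3 (0.0889 and 0.0876), and the latter also without array 1 (0.0539). Over all 26 rows of the ligand classes 5 rose, 5 fell and 16 did not pass, so 38.5% were called, against 57.3% of all rows.

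**Figure D1:**
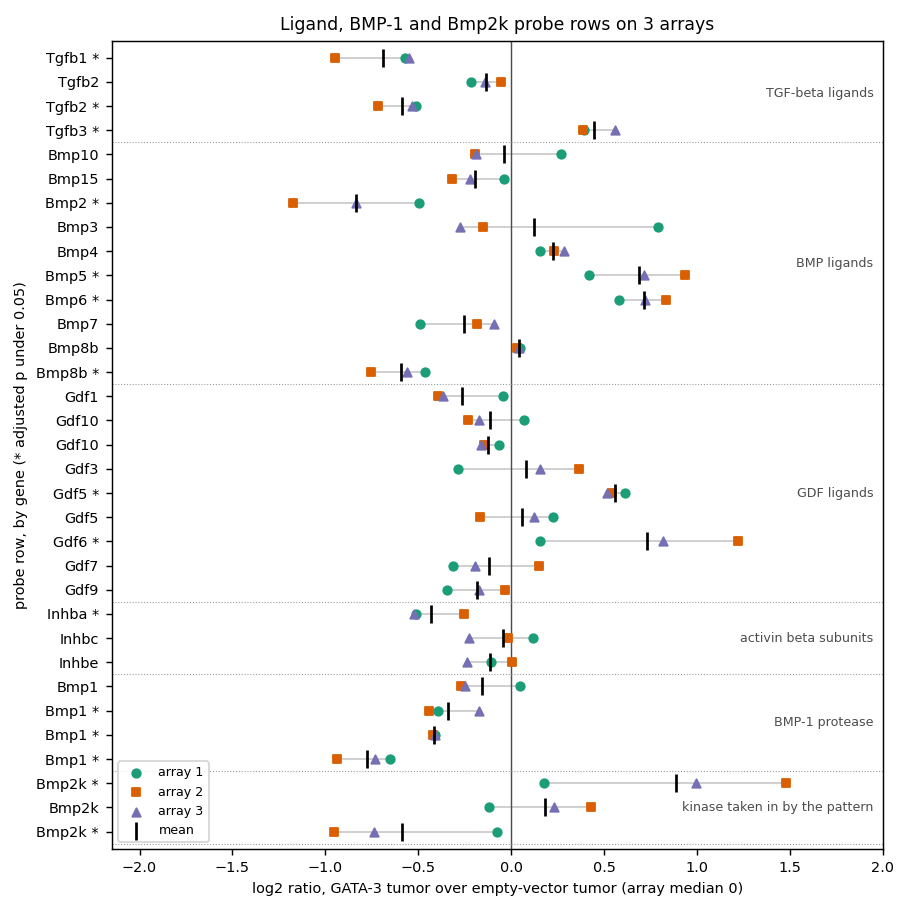
Log2 ratio (horizontal axis) of each ligand, Bmp1 and Bmp2k probe row (vertical axis), with 1 point per array, the mean as a black tick and a grey line over the range of the 3 arrays. Bmp5, Bmp6 and Tgfb3 lie to the right of 0 on all 3 arrays, and Tgfb1, Bmp2 and Inhba to the left. The 3 rows of Bmp2k run from -0.59 to 0.89.

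The largest positive ratios of the family lay among the receptors, of which 9 of 23 rows rose, 5 fell and 9 did not pass (60.9% called, against 57.3% of all rows). Acvr1 (ALK2), a type I receptor for BMPs, held the highest row of the family at 0.95, 1.61 and 1.27 (mean 1.28 ± 0.33, 2.42-fold, adjusted p = 0.00320). Its second row gave -0.01, 0.74 and 0.26 (mean 0.33 ± 0.38, adjusted p = 0.128). Acvr1b (ALK4), the type I receptor for activin and nodal, lay on the other side: its lowest row gave -0.96, -1.13 and -0.77 (mean -0.95 ± 0.18, 1.93-fold, adjusted p = 0.00319). The other 2 rows of Acvr1b had means of -0.26 and -0.17 and did not pass, although the first was called under the deposited centring (adjusted p = 0.0343, against 0.0534), with the arrays scaled (0.0435) and without array 1 (0.0352). By mean, the 2 rows of Acvr1 were thus positive and the 3 of Acvr1b negative, but only 1 row of each gene was called. The Acvr1b row at -0.17 gave -0.66, 0.05 and 0.12, so its negative mean came from array 1.

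Tgfbr1 (ALK5), the type I receptor for TGF-beta, was positive on every array in all 3 rows, of which 2 rose. They gave 0.76, 1.25 and 0.31 (mean 0.77 ± 0.47, adjusted p = 0.0197), 0.37, 0.52 and 0.44 (mean 0.44 ± 0.08, adjusted p = 0.0102), and 0.09, 0.48 and 0.31 (mean 0.29 ± 0.20, adjusted p = 0.0661). The middle row lost the call without array 2 (adjusted p = 0.0575) and without array 3 (adjusted p = 0.0817). Tgfbr3 (betaglycan), the co-receptor that presents ligand to the type II receptor, rose in both rows, with 0.43, 0.30 and 0.28 (mean 0.34 ± 0.08, adjusted p = 0.0242) and 0.28, 0.40 and 0.22 (mean 0.30 ± 0.09, adjusted p = 0.0363). It was the only one of the 16 family genes with several rows in which every row was called with 1 sign. Both of its calls were lost without array 2 (adjusted p = 0.0851 and 0.185) and without array 3 (0.121 and 0.142), and the second under the deposited centring (0.0635). Tgfbr2, the type II receptor for TGF-beta, had 1 row that rose, 1 that fell and 1 near 0. They gave 0.27, 0.24 and 0.31 (mean 0.27 ± 0.03, adjusted p = 0.0389), -0.12, -0.42 and -0.39 (mean -0.31 ± 0.16, adjusted p = 0.0467), and -0.10, 0.08 and -0.01 (mean -0.0082, adjusted p = 0.942). The rise was lost without array 2 (adjusted p = 0.133), without array 3 (0.227) and under the deposited centring (0.0745), and the fall without array 2 (0.201) and array 3 (0.239). No direction can be given for Tgfbr2 from these rows.

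Bmpr2 and Bmpr1a each had rows called in opposite directions. One row of Bmpr2, the type II receptor for BMPs, gave 1.11, 1.47 and 0.98 (mean 1.19 ± 0.25, 2.28-fold, adjusted p = 0.00319). Its other row gave -0.33, -0.46 and -0.20 (mean -0.33 ± 0.13, adjusted p = 0.0331). Bmpr1a (ALK3), the main type I receptor for BMP2 and BMP4, likewise had a row at 0.91, 1.15 and 1.03 (mean 1.03 ± 0.12, adjusted p = 0.00319) and a row at -0.27, -0.56 and -0.45 (mean -0.43 ± 0.14, adjusted p = 0.0161). In both genes the rows do not overlap on any array, and each pair is annotated to a single RefSeq transcript, so the rows disagree on the direction. The 2 falls were lost without array 2 (adjusted p = 0.168 for Bmpr2 and 0.0831 for Bmpr1a) and without array 3 (0.104 and 0.107). The 3 rows of Bmpr1b (ALK6) did not pass, with 0.03, 0.27 and 0.23 (mean 0.18 ± 0.12), 0.02, 0.0055 and -0.12 (mean -0.03 ± 0.08), and 0.11, -0.53 and -0.66 (mean -0.36 ± 0.41).

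Of the remaining receptors, Acvr2a, a type II receptor shared by activins and BMPs, gave 0.36, 0.39 and 0.46 and rose (mean 0.40 ± 0.05, adjusted p = 0.0125). The related Acvr2b gave -0.44, -0.22 and -0.18 and did not pass (mean -0.28 ± 0.14, adjusted p = 0.0558), although it was called under the deposited centring (adjusted p = 0.0284). Acvrl1 (ALK1), the type I receptor of endothelial cells for BMP9 and BMP10, gave -0.45, -0.45 and -0.37 and fell (mean -0.42 ± 0.04, adjusted p = 0.0105). The calls of Acvr2a and Acvrl1 were lost without array 2 (adjusted p = 0.0554 and 0.0545) and without array 3 (0.112 and 0.0760). Beside Acvrl1, endothelial markers went both ways: 4 of 11 marker rows rose and 2 fell, with Tek at 0.81 ± 0.04 and Plvap at -0.86 ± 0.07. Their part in the Acvrl1 ratio was not tested.

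Of the 10 SMAD rows 3 rose, 4 fell and 3 did not pass (70.0% called, against 57.3% of all rows). Mean signs differed between genes and also between rows of Smad1 and of Smad4. Smad2, Smad5 and Smad9 have 1 row each, so a difference between genes cannot be told from one between probes. Smad5, a BMP-regulated SMAD, gave 0.51, 1.18 and 0.97 and rose 1.85-fold (mean 0.89 ± 0.35, adjusted p = 0.00667). Smad1, which carries the same signal, was lower in 4 of 5 rows: 3 of them fell, with means of -1.001 ± 0.29, -0.66 ± 0.14 and -0.48 ± 0.20 (adjusted p = 0.00382, 0.00454 and 0.0159). Per array these 3 gave -0.93, -1.32 and -0.75, then -0.78, -0.51 and -0.69, then -0.64, -0.54 and -0.26. These 3 rows are named for their negative call, so the shared sign of their 9 values adds nothing to it. The lowest Smad1 row by mean, -1.10 ± 1.03, gave 0.04, -1.98 and -1.35 and did not pass (adjusted p = 0.0559; 0.00221 without array 1, 0.0448 under the deposited centring and 0.0427 with arrays scaled to one SD). The last Smad1 row rose, with 0.77, 0.33 and 0.28 (mean 0.46 ± 0.27, adjusted p = 0.0302). That rise was lost without array 2 (adjusted p = 0.0508) and array 3 (0.0753), and the fall at -0.48 without array 2 (0.0623).

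Smad2, which carries the TGF-beta and activin signal, gave 0.61, 0.45 and 0.46 and rose (mean 0.51 ± 0.09, adjusted p = 0.00725), a call lost without array 3 (adjusted p = 0.0562). Smad9 gave -0.23, 0.47 and 0.38 (mean 0.20 ± 0.38, adjusted p = 0.310). Smad4, the partner common to both branches, had a row that fell at -0.34, -0.80 and -0.72 (mean -0.62 ± 0.25, adjusted p = 0.0102), a call lost without array 3 (adjusted p = 0.0722). Its other row gave -0.52, 0.25 and 0.34 (mean 0.02 ± 0.47, adjusted p = 0.925). For Smad4 and Smad9 array 1 thus had the other sign from arrays 2 and 3, in 1 row each. Bmp2k had rows of both signs too, at 0.18, 1.48 and 0.997 (mean 0.89 ± 0.66, adjusted p = 0.0312), at -0.12, 0.43 and 0.23 (mean 0.18 ± 0.28), and at -0.08, -0.95 and -0.74 (mean -0.59 ± 0.46, adjusted p = 0.0412), and both calls were lost without array 2 (adjusted p = 0.0716 and 0.132) and array 3 (0.118 and 0.169).

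**Figure D2:**
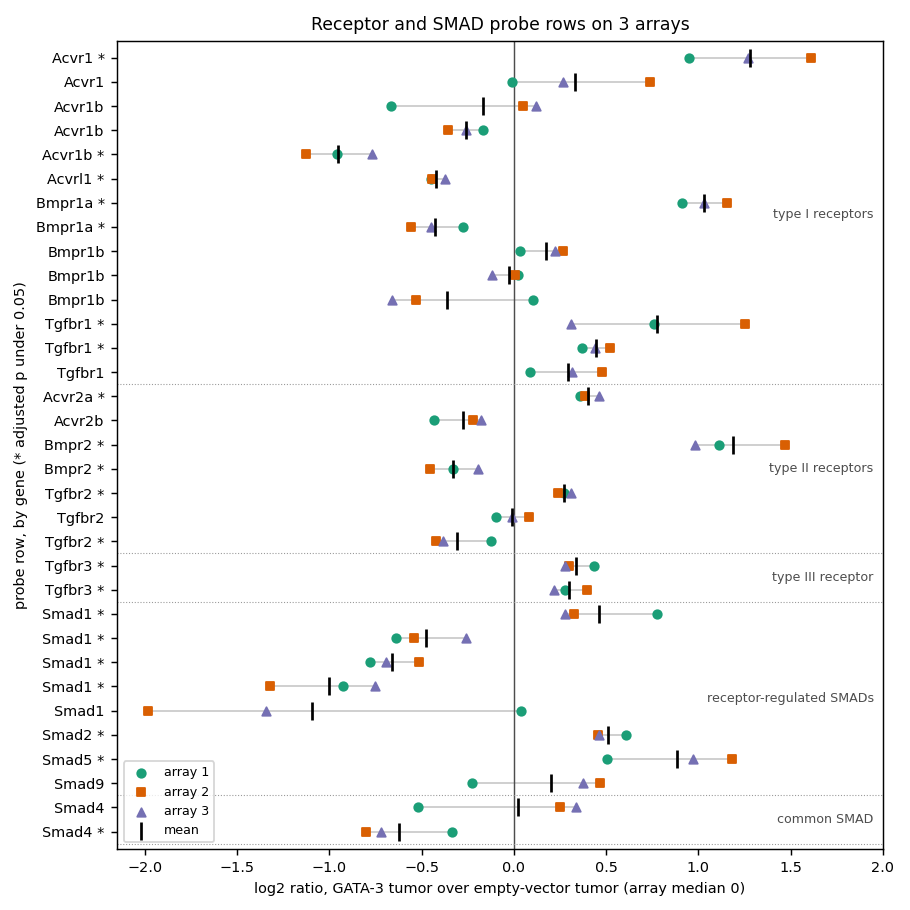
Log2 ratio (horizontal axis) of each receptor and SMAD probe row (vertical axis), with 1 point per array, the mean as a black tick and a grey line over the range of the 3 arrays. Acvr1, Bmpr2 and Bmpr1a hold the highest rows, and Bmpr2 and Bmpr1a each also hold a row below 0 on all 3 arrays. The 5 rows of Smad1 run from -1.10 to 0.46.

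How far rows of one gene disagreed can be set against the whole array. Of the 16 family genes with 2 or more rows, 8 (50.0%) had rows of 1 mean sign, against 47.7% of the 5138 named genes with 2 or more rows. In 5 family genes (31.3%), Bmp2k, Bmpr1a, Bmpr2, Smad1 and Tgfbr2, 1 row rose while another fell, against 21.9% of all such genes. In 1 (6.25%), Tgfbr3, all rows were called with 1 sign, against 16.3%. The median distance between the highest and lowest row of a gene was 0.63 in the family and 0.62 over all genes, several times the median SD of a family row between arrays (0.16). Where on the transcript each probe lies is not known from the files, so isoforms, binding to other transcripts and dye effects of a probe cannot be told apart.

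**Figure D3:**
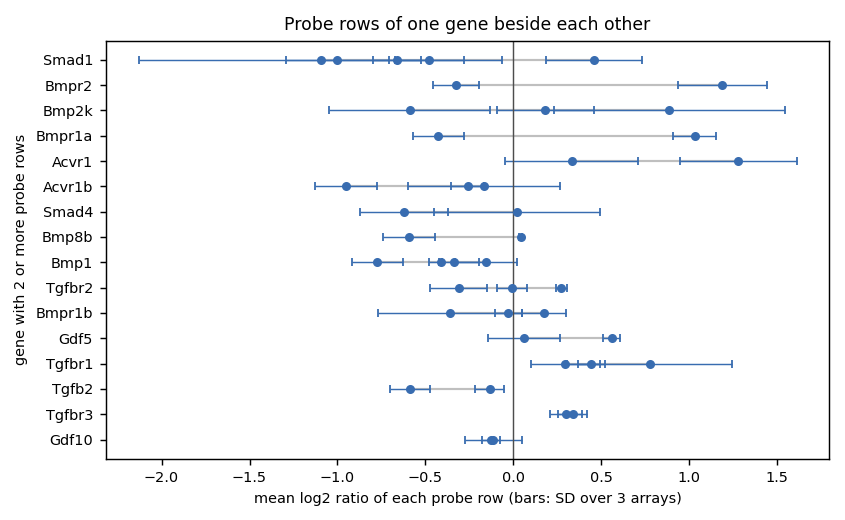
Mean log2 ratio (horizontal axis) of every probe row for the 16 genes with 2 or more rows (vertical axis), with bars of 1 SD over 3 arrays. Genes are ordered by the distance between their outermost rows, from 0.01 for Gdf10 to 1.56 for Smad1.

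The arrays ranked the family rows alike to different degrees. Across the 66 rows, which are not independent replicates and share the same arrays, the ratios of arrays 2 and 3 had a Pearson's r of 0.96. Array 1 had an r of 0.70 with either of them. Over all rows r was 0.94 for arrays 2 and 3, and 0.77 and 0.78 for array 1 with arrays 2 and 3. Arrays 2 and 3 also share a title prefix, which array 1 does not. The ratio had 1 sign on all 3 arrays in 48 of the 66 rows (72.7%), against 76.7% of all rows.

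**Figure D4:**
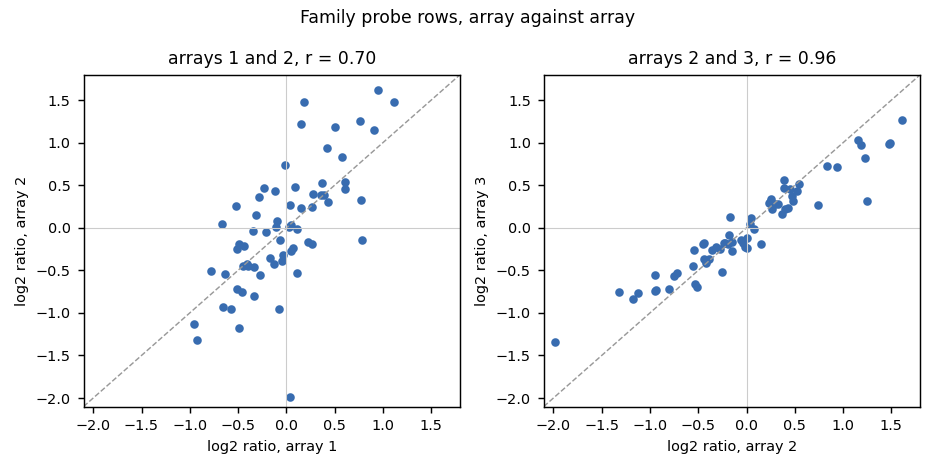
Log2 ratios of the 66 family rows on array 1 against array 2 and on array 2 against array 3, with the line of equality dashed. Points lie closer to a line in the second panel (r = 0.96) than in the first (r = 0.70), and the Smad1 row at 0.04 and -1.98 lies lowest in the first.

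Other genes of the pathway were followed in 8 lists, of which 162 rows of 99 genes were measured. Of these rows 44 rose, 57 fell and 61 did not pass, 62.3% called against 57.3% of all rows, with a median of -0.16. Among further family ligands 1 of 6 rows rose and 1 fell (33.3% called, against 57.3% of all rows). Inha, the alpha subunit that turns an activin into an inhibin, gave -0.75, -0.87 and -0.72 and fell (mean -0.78 ± 0.08, adjusted p = 0.00320), and Mstn, myostatin, gave 0.30, 1.94 and 0.87 (mean 1.04 ± 0.83, adjusted p = 0.0370; 0.0945 without array 3). Lefty1 and Amh gave means of -0.22 and 0.20 and did not pass.

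The list of extracellular antagonists, most of which bind BMPs or activins, counted 7 rows up and 6 down of 21, with a median of 0.04. Of its rows 61.9% were called, against 57.3% of all rows. The BMP modulator Twsg1 reached 1.10 ± 0.13 in one row (adjusted p = 0.00319) and lay at -0.15 ± 0.07 in the other, named after its value was seen. Gremlin (Grem1) gave 1.25, 0.78 and 0.69 (mean 0.91 ± 0.30, adjusted p = 0.00486) and noggin (Nog) 0.53, 0.39 and 0.60 (mean 0.50 ± 0.11, adjusted p = 0.00796), both antagonists of BMP2 and BMP4. Nbl1 fell at -0.56 ± 0.14 (adjusted p = 0.00701). Of these 4, Nog lost the call without array 3 (adjusted p = 0.0762). Of the 2 ligands named for Grem1 and Nog, Bmp2 fell, and Bmp4 was positive on every array but not called, as given above. A link between these ratios was not tested.

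Genes that store or activate latent TGF-beta counted 6 rows up and 9 down of 22 (median -0.25, 68.2% called, against 57.3% of all rows). Itgb6, whose integrin frees TGF-beta from its latent complex on epithelial cells, gave -1.16, -1.41 and -0.99 in one row (mean -1.18 ± 0.21, adjusted p = 0.00319). Its other row, named after its value was seen, lay at -0.27 ± 0.14 and did not pass (adjusted p = 0.0604, called at 0.0405 under the deposited centring and at 0.0233 without array 1). The latent TGF-beta binding protein gene Ltbp3 rose in 2 rows at 0.72 ± 0.02 and 0.65 ± 0.11, and Ltbp1 in 1 row at 0.61 ± 0.09 (adjusted p = 0.00321, 0.00422 and 0.00451), while another Ltbp3 row fell at -0.52 ± 0.16 and 4 of the 7 Ltbp1 rows fell, again named after their values were seen. These 5 falls were lost without array 3, with an adjusted p of 0.0568 for Ltbp3 and of 0.0545 to 0.177 for Ltbp1, and 2 of the Ltbp1 falls also without array 2 (0.0538 and 0.0789). Co-receptors counted 4 up and 2 down of 12 (median 0.20, 50.0% called, against 57.3% of all rows). The BMP co-receptor genes Rgma (0.82 ± 0.18) and Rgmb (0.71 ± 0.13) rose (adjusted p = 0.00352 and 0.00377). A row of Eng, the endothelial co-receptor endoglin, fell at -0.48 ± 0.09 (adjusted p = 0.00840, and 0.0719 without array 3). So did a row of Tdgf1, the nodal co-receptor Cripto, at -0.62 ± 0.40 (adjusted p = 0.0258, and 0.0845 without array 3). The other row of each, named after its value was seen, did not pass. For Eng it lay at -0.24 ± 0.16 (adjusted p = 0.0905, called at 0.0446 under the deposited centring). For Tdgf1 it was positive on every array, at 0.29 ± 0.15 (adjusted p = 0.0544).

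Intracellular regulators counted 11 up and 15 down of 40 (median -0.14, 65.0% called, against 57.3% of all rows). Pmepa1, a feedback inhibitor induced by TGF-beta, fell in one row with -1.56, -1.16 and -1.12 (mean -1.28 ± 0.24, adjusted p = 0.00319), and its other row, named after its value was seen, lay at 0.05 ± 0.04. The type I receptor's binding partner Fkbp1a fell in 2 rows at -1.25 ± 0.29 and -0.85 ± 0.10, and the deubiquitinase gene Usp15 rose in one row at 1.27 ± 0.23 (adjusted p = 0.00319 each). The remaining Fkbp1a row, named after its value was seen, lay at -0.15 ± 0.20 and did not pass (adjusted p = 0.273). Of the other Usp15 rows, seen only afterwards, 2 rose and 1 fell, at -0.94 ± 0.63. The fall was lost without array 2 (adjusted p = 0.0579), and the rise at 0.81 ± 0.60 without array 2 (0.0896) and without array 3 (0.140). Nuclear partners counted 4 up and 5 down of 15 (median -0.14, 60.0% called, against 57.3% of all rows). Atf2 lay at 1.41 ± 0.15 in one row and -0.68 ± 0.22 in another, Foxh1 at -0.74 ± 0.13 and a Zeb2 row at -0.67 ± 0.22 (adjusted p from 0.00319 to 0.00687). The other Zeb2 row, named after its value was seen, rose at 0.84 ± 0.38 (adjusted p = 0.00904; 0.0513 without array 3). The Atf2 rows and the Zeb2 rows are again of one gene with opposite calls.

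Genes known to be induced by TGF-beta counted 7 rows up and 14 down of 31 (67.7% called, against 57.3% of all rows), with medians of -0.37, -0.25 and -0.29 on arrays 1, 2 and 3. Klf10, a TGF-beta-inducible zinc finger factor, gave 1.32, 1.78 and 1.44 and one Tsc22d1 row gave 1.02, 1.72 and 1.27, both rising (means 1.51 ± 0.24 and 1.34 ± 0.35, adjusted p = 0.00319 and 0.00320). The collagen gene Col1a1 gave -1.46, -1.31 and -0.89 and the cell cycle inhibitor Cdkn1a gave -1.08, -1.21 and -0.77, both falling (means -1.22 ± 0.29 and -1.02 ± 0.22, adjusted p = 0.00319 and 0.00320). The second Cdkn1a row gave 0.18 ± 0.21 and did not pass. A second Tsc22d1 row fell at -0.86 ± 0.28 (limma, adjusted p = 0.00501) and stayed called whichever array was left out. Both rows were named after their values were seen. Rows of Tsc22d1 were thus called in opposite directions. Col1a1 and Col1a2 are also in the fibroblast marker list, as is Dcn of the antagonists, and fibroblast marker rows counted 3 up and 10 down of 16, with medians of -0.36, -0.31 and -0.29 on the 3 arrays. Their part in the counts of this list was not tested.

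Genes known to be induced by BMP counted 4 rows up and 5 down of 15 (median -0.16, 60.0% called, against 57.3% of all rows). The Id genes, direct BMP targets that encode inhibitors of basic helix-loop-helix factors, lay below 0 by mean: Id3 gave -1.43, -2.29 and -1.22 (mean -1.65 ± 0.57, adjusted p = 0.00386) and Id2, named after its value was seen like Id1 and Id4, gave -1.40, -1.35 and -0.45 (mean -1.07 ± 0.53, adjusted p = 0.0101). Id1 fell at -0.40 ± 0.25 (adjusted p = 0.0380; 0.168 without array 2 and 0.132 without array 3), and Id4 lay at -0.06 ± 0.13 and did not pass. Other BMP-induced genes went both ways. The osteoblast factor gene Sp7 gave 0.95, 1.24 and 1.21 and rose (mean 1.13 ± 0.16, adjusted p = 0.00319). The homeobox gene Msx1 gave 0.79, 0.68 and 0.74 and rose too (mean 0.74 ± 0.05, adjusted p = 0.00322). Dlx3, also a homeobox gene, fell at -1.09 ± 0.23 (adjusted p = 0.00319).

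**Figure D5:**
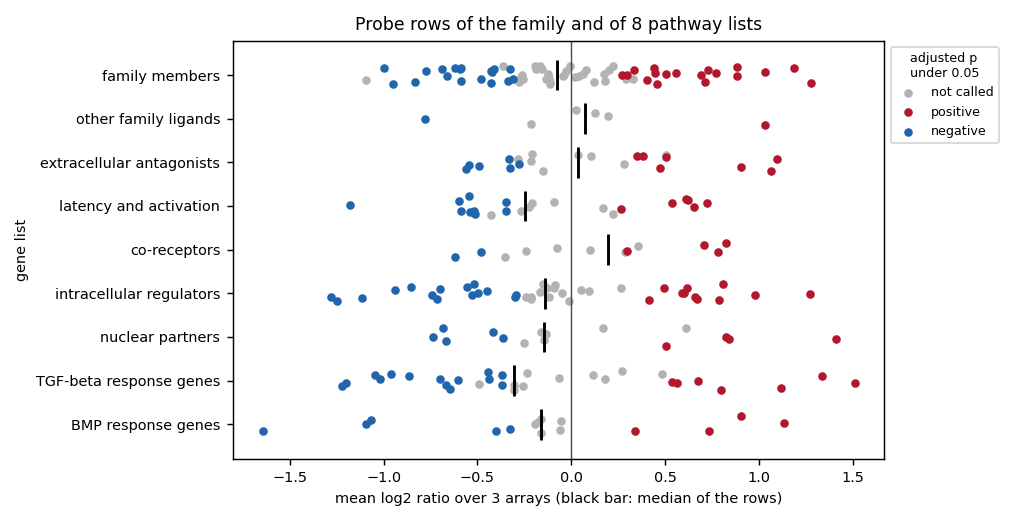
Mean log2 ratio (horizontal axis) of each probe row of the family and of 8 lists of other pathway genes (vertical axis), coloured by call, with the median of each list as a black bar. Every list holds rows called in both directions, and medians run from -0.31 for TGF-beta response genes to 0.20 for co-receptors.

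Markers of the cell types that such outgrowths can hold were called in shares of 53.8% for macrophages, 54.5% for endothelium, 57.1% for adipocytes, 81.3% for fibroblasts, 81.8% for epithelium and 85.7% for muscle, against 57.3% of all rows. Epithelial marker rows counted 2 up and 7 down of 11, macrophage rows 3 and 4 of 13, adipocyte rows 4 and 0 of 7 (limma; 0 also at an unadjusted p under 0.05) and muscle rows 2 and 4 of 7. List medians on single arrays ran from -0.92 to -0.33 for epithelium, -0.43 to 0.04 for macrophages, 0.12 to 0.63 for adipocytes and -0.42 to -0.16 for muscle. Because only ratios are given, it could not be checked whether any marker or family gene was present above background. The part of cell composition in the family's ratios was not tested.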

How the data were processed

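The log2 ratios are the deposited values of the authors, 1 per probe row and array, with base 2 assumed, since the sources used here state neither the base nor the scanner, background correction, normalization or ratio direction. Before centring, the columns had medians of -0.02, -0.07 and -0.07 and SDs of 0.56, 0.72 and 0.55 on arrays 1, 2 and 3, numbered in accession order as names only. Depth does not apply to arrays; their number limits the precision, and signal over background is unknown.

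Symbols came from the platform annotation: 22973 of 38976 rows had 1 symbol, 0 had several and 16003 had none, and all 15056 symbols were in the RefSeq mouse gene table. The median of each array was set to 0. Each row with values on all 3 arrays (38975) was tested for a mean different from 0 with limma 3.58.1 in R 4.3.3 (intercept only, eBayes, two-sided), with Benjamini-Hochberg adjustment and a threshold of 0.05. The test was tried on simulated data. An exact sign-flip test of 3 arrays cannot go below p = 0.25 and was not run. Rows were kept apart because rows of one gene disagreed; averaging them was an alternative, beside the deposited centring, scaling, a robust eBayes, other thresholds, the missing-value filter, the family without Bmp2k and each array left out.

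The family, the gene lists and the tests were chosen with earlier results of these data known. Values per array were to be given for the 10 highest and 10 lowest family rows and all Tgfb, Tgfbr, Bmpr and Smad rows, and names for up to 4 rows of smallest p per pathway list, with exceptions marked where they occur. List genes absent from the annotation were not analysed here.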

Additional observations from a re-analysis of the deposited data

How the results depend on the processing

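The family count of 36 called rows (18 positive, 18 negative) stayed within 1.5 times under the deposited centring (37; 16 and 21), scaling (38; 18 and 20), a robust eBayes (36), a value on at least 2 arrays (36), an adjusted p under 0.10 (42) and without Bmp2k (34 of 63). It moved to 4 (3 positive, 1 negative) with an absolute mean of at least 1 as well, where the pathway lists moved from 101 to 20 (9 and 11) and all rows from 22341 to 3207 (2155 and 1052). With rows averaged per gene, which leaves fewer rows to count, 23 of 40 family genes were called (13 positive, 10 negative) and 60 of 99 list genes (27 and 33). Leaving out 1 array gave 16 to 44 family rows (7 to 23 positive, 9 to 21 negative), 53 to 116 list rows (21 to 49 and 32 to 67) and 11756 to 25269 of all rows (6948 to 13779 and 4808 to 11490), with the lowest without array 3 and the highest without array 1. The cause was not tested. The family median of -0.08 ran from -0.10 to -0.066 over the fits without 1 array and was -0.13 as deposited, -0.11 without Bmp2k and -0.04 with rows averaged per gene.

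Of the 40 family rows followed singly, 31 were called and 15 of these kept the call in each setting run for them. Signs turned only in rows near 0: the upper Smad4 row (0.02) went to -0.031 as deposited and ran from -0.13 to 0.29 over the left-out arrays (0.29 without array 1 being called, adjusted p = 0.0393), the middle Tgfbr2 row (-0.0082) from -0.0525 to 0.035, and the middle Bmpr1b row (-0.03) from -0.056 to 0.015. Each array already combines RNA of both kinds of tumor in 1 ratio, so no further pairing was fitted. Whether each array holds a separate tumor pair is not stated in the sources used here.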

Other observations

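Without array 1, the array with another title prefix, 9 family rows were called that had not been called on all 3, and 1 row of Bmp1 lost its call. On arrays 2 and 3 the lowest Smad1 row (-1.98 and -1.35) and a Bmpr1b row (-0.53 and -0.66) were negative, and Smad9 (0.47 and 0.38) and the upper Smad4 row (0.25 and 0.34) were positive. The other 5 were the second rows of Acvr1 and Acvr1b, the third row of Tgfbr1, a row of Bmp2k, and Gdf1. These rows were picked for this change, and what the title prefix stands for is not stated by the labels.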
